A study of Mus musculus with 6 samples.

Results

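The comparison set B-cell progenitors that had lost Erg against progenitors of mice with the same floxed Erg alleles and no Cre transgene, and it used 4 of the 6 libraries of the series. Its members were chosen by genotype alone: 2 Erg KO libraries (Rag1CreT/+;Erg fl/fl) and 2 Erg fl/fl control libraries (Rag1Cre+/+;Erg fl/fl). Both groups carried the floxed alleles on a background labelled C56BL/6 and differed by the Rag1Cre transgene, which expresses Cre recombinase during lymphopoiesis, so that an effect of Cre itself and an effect of losing Erg cannot be told apart within these 4 libraries. In both groups, B220+ cells had been selected from lineage-negative bone marrow after a culture of 8 days over OP9 stroma, to which the cytokines SCF, IL7 and FL were added. Replicate 1 of each group was female and replicate 2 male. The study gives a range of ages for its mice as a whole, and the labels give no age for these samples. The study describes Erg-deficient cells as held at the pre-proB stage, whereas control cells pass to the proB stage, so that genotype and developmental stage cannot be told apart. Contact counts carry no expression, so the labelled cell type could not be checked against marker genes, and OP9 cells, which are mouse cells too, could not be told from the progenitors by sequence.

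Erg is a transcription factor of the ETS family, whose members bind DNA around a GGAA core, and it acts in haematopoietic stem cells and in early B lymphopoiesis ahead of Ebf1 and Pax5, the factors that specify and commit the B lineage. In situ Hi-C cuts chromatin with a restriction enzyme, ligates ends held near each other in intact nuclei, and counts the ligated pairs. Contacts fall off with distance along a chromosome. On that decay are laid the A and B compartments, which separate gene-rich open chromatin from gene-poor closed chromatin, and domains, whose boundaries are crossed by few contacts. In pro-B cells the immunoglobulin heavy chain locus Igh is known to contract, which brings distal V segments near the D and J segments.

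Contacts were counted in bins of about 100 kb that begin and end on a GATC site, the sequence cut by MboI. All 24048 inner bin ends read in the mm10 reference closed on GATC. The 40 bases across the left edge of 3 bins named below are shown to make plain what a bin is, with the cut site in capitals. They lie on the plus strand of mm10 at chr4:44699810-44699849 for the bin of Pax5, chr3:90600446-90600485 for the bin of S100a8 and S100a9, and chr2:9800328-9800367 for the bin of Gata3.
Pax5 bin edge: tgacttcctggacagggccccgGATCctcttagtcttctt
S100a8 and S100a9 bin edge: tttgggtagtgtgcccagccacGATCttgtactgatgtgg
Gata3 bin edge: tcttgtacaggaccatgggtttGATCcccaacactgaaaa

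The promoters of Pax5, Igll1 and Vpreb1 are printed because their bins are among those in which domain insulation changed, as described below. Each is a RefSeq window on GRCm38.p6 of 250 bases before and 50 bases after a start, read on the minus strand, and the ETS core GGAA, or TTCC where it lies on the other strand, is in capitals. The window of Pax5, chr4:44710645-44710944, held 5 cores, that of Igll1, chr16:16863936-16864235, held 3, and that of Vpreb1, chr16:16869206-16869505, held 5. Over 31396 autosomal promoters of the same length, 95.9% held at least 1 core on either strand, counting overlapping matches, and the median was 3. A core of this length is common and marks letters only. The RefSeq start of Igll1 was the GENCODE start used to place genes in bins, whereas that of Pax5 lay 207 bases and that of Vpreb1 1588 bases from it.
Pax5 promoter: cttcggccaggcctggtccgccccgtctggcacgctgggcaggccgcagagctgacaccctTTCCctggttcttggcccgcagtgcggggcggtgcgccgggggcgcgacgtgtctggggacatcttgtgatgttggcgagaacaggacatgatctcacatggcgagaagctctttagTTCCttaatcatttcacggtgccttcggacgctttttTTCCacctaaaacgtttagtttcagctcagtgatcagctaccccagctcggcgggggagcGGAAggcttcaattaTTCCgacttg
Igll1 promoter: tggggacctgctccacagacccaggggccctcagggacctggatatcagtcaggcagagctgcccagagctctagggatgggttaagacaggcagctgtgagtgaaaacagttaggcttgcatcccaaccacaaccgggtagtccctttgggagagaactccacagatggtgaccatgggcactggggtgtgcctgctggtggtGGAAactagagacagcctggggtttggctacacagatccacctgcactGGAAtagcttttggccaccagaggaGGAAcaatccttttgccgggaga
Vpreb1 promoter: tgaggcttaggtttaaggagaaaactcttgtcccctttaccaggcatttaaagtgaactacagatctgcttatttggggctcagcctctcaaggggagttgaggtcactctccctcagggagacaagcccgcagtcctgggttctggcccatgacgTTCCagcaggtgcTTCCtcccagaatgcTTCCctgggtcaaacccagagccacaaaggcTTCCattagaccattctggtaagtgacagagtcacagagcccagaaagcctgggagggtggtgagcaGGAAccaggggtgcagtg

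The deposited counts summed to 58335904 and 57259415 read pairs for Erg KO, against 43924865 and 29014581 for the Erg fl/fl control. The lowest of these sums is below the library sizes stated in the methods of the study, and the reason was not examined. Contacts were scored on 23645 of 24067 autosomal bins, and the counts for compartments and insulation were first thinned to the 19104120 read pairs within chromosomes of the shallowest library. Erg fl/fl control replicate 2 was the shallowest and the least like the other libraries. Across bins its insulation correlated with the Erg KO libraries at r = 0.817 and 0.846, against 0.927 and 0.937 for Erg fl/fl control replicate 1, although the 2 Erg fl/fl controls correlated with each other at 0.940 and the 2 Erg KO libraries at 0.958. These correlations are across bins, which are not independent. The main results are therefore given with and without that library, but some values of single genes, bins and bin pairs only with it. The part of its depth in the results was not tested beyond the thinning. Erg itself spans chr16:95359169-95586593, 227 kb on the minus strand, so the deletion of part of the gene cannot be seen in bins of this size.

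The distribution of contacts over distance differed between the groups. After balancing, which gives every bin the same total, contacts between chromosomes made up 35.2% and 37.4% of contacts in the Erg KO libraries, against 26.8% and 23.7% in the controls. Both Erg KO values lay above both control values. The group means were 36.3% ± 1.56 and 25.3% ± 2.2 (SD, n = 2 each), a difference of 11 percentage points, or 9.44 without Erg fl/fl control replicate 2. With 2 libraries against 2, an exact two-sided permutation test cannot give a p below 0.333, the value it gave here, and the same limit holds for every value given below for a library as a whole.

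Within chromosomes the Erg KO libraries had fewer contacts at intermediate distances and more at long ones. From 0.5 to 2 Mb they held 15.4% and 15.1% of contacts within chromosomes, against 18.9% and 21.8% in the controls. From 2 to 10 Mb the shares were 16.8% and 16.9% against 18.3% and 20.97%. Beyond 10 Mb the Erg KO libraries held 44.7% and 45.2%, and the controls 37.5% and 33.7%. In these 3 classes the groups did not overlap, and the 2 Erg KO libraries lay within 1 percentage point of each other whereas the controls lay further apart. Under 0.5 Mb the shares were 23.1% and 22.7% against 25.3% and 23.5%. Those shares also did not overlap, but among bins of intermediate GC content they did (32.3% and 31.6% against 33.8% and 31.1%).

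When the shares were tested with limma for each of 19 chromosomes in 11 distance classes, 67 of 209 combinations were lower in Erg KO (32.1%) and 41 were higher (19.6%) at an adjusted p under 0.05. All 19 chromosomes fell in the classes 0.5 to 0.8 Mb, 0.9 to 1.6 Mb and 1.7 to 3.2 Mb, with median log2 changes of -0.36, -0.43 and -0.40. All 19 rose from 25.7 to 51.2 Mb, by a median of 0.33, and beyond 51.2 Mb, by a median of 0.62. The standard error of each was 0.11. From 6.5 to 12.8 Mb, where the curves crossed, 1 chromosome passed. Chromosomes of a library are not independent of each other, so these counts describe 4 libraries and not 19 repeats. Without Erg fl/fl control replicate 2, 125 were lower and 65 higher, whereas without Erg KO replicate 1 or replicate 2 none was lower and 17 or 16 were higher.

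**Figure D1:**
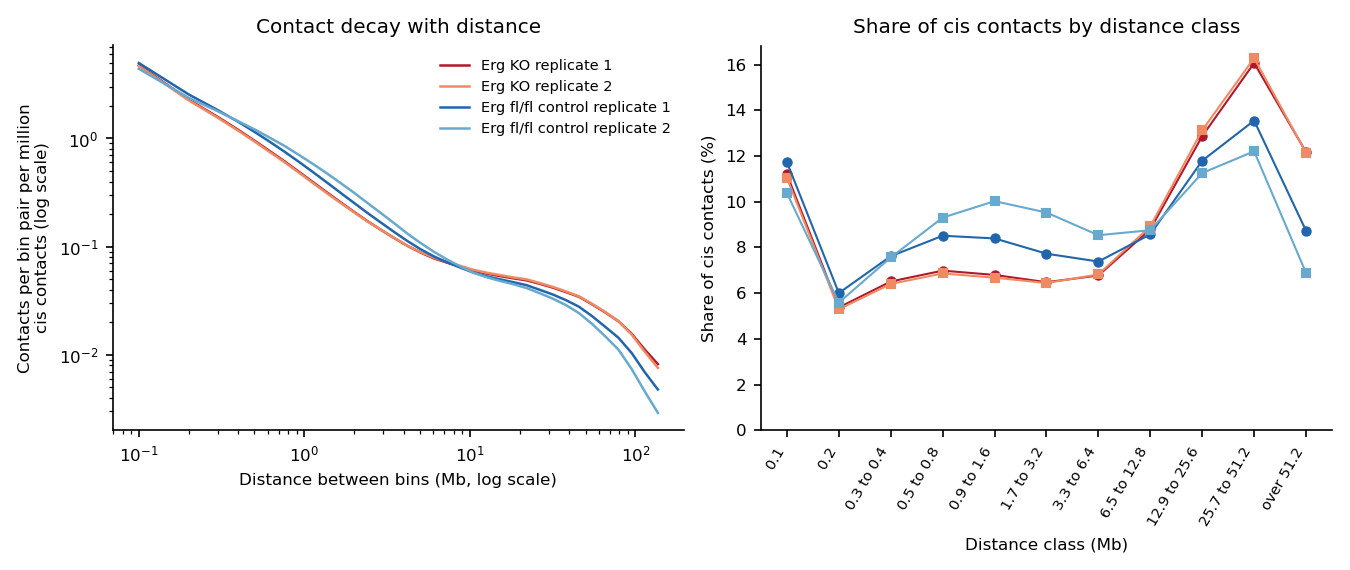
Contacts against distance in the 4 libraries after balancing. On the left, contacts per bin pair, scaled to the total within chromosomes, are plotted against the distance between bins, both on log scales, and on the right the share of contacts within chromosomes in each distance class, in percent. The Erg KO curves lie on each other, below both controls from 0.5 to 3.2 Mb and above both beyond 25.7 Mb, and Erg fl/fl control replicate 2 lies furthest from them.

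The slope of the decay between 0.5 and 5 Mb did not separate the groups. It was -1.063 and -1.051 in the Erg KO libraries, and -1.106 and -1.055 in the controls (exact permutation p = 0.667, two-sided), so that control replicate 2 fell between the Erg KO values. Before balancing it was -1.079 and -1.072 against -1.148 and -1.129, with no overlap, and among bins of intermediate GC content the groups overlapped again. No direction is therefore given for the slope.

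No bin passed the test for compartment scores, which in simulated data found 1 of 100 shifts of 0.5 and 78 of 100 shifts of 1. The score of a bin, scaled within each chromosome, was positive in A and negative in B, and the leading component of the contact matrix gave it in 76 of 76 combinations of library and chromosome. Scores correlated at 0.990 between the 2 Erg KO libraries, at 0.991 between the 2 controls and at 0.973 to 0.991 between the groups. Between 45.1% and 45.6% of bins were in A in each of the 4 libraries. Of 23645 bins tested with limma, 0 passed an adjusted p of 0.05 (0%), and the lowest adjusted p was 0.238. At an unadjusted p under 0.05 there were 16.7% of bins. The mean score was positive in the controls and negative in Erg KO in 413 bins, of which 145 had the same signs in all libraries, and the reverse held in 459 and 167. None of these bins passed the test, and without Erg fl/fl control replicate 2 the lowest adjusted p was 0.783.

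Because no bin passed, the genes with the smallest p among the lists are given as values only. The bin of Pax5, which starts in A, scored 1.05 and 1.12 in Erg KO against 1.42 and 1.55 in the controls. That of Ebf1 scored -0.65 and -0.82 against -0.54 and -0.06, negative in all 4 libraries. The bin of Erg scored 1.246 and 1.218 against 1.275 and 1.434. The difference at Pax5 was -0.40 (SE 0.05, limma adjusted p = 0.238) and that at Ebf1 -0.44 (SE 0.18, adjusted p = 0.336). At Erg it was -0.12 (SE 0.07, limma adjusted p = 0.448). Without control replicate 2 the difference was -0.34 at Pax5 and -0.20 at Ebf1. The other list genes nearest to passing were Blnk, which encodes an adaptor of the pre-B cell receptor, at -0.58, Myb, a progenitor transcription factor, at -0.39, Ets1, an ETS factor, at -0.32, Gzmb, a granzyme of cytotoxic cells, at -0.43, Satb1, a chromatin organiser of lymphocytes, at -0.28 and Flt3, the receptor for FL, at -0.21. 3 of the genes named by this rule had higher scores in Erg KO: Xrcc4 of the end-joining repair machinery, at 0.55, Fn1, encoding fibronectin, at 0.42 and Twist1, a mesenchymal transcription factor, at 0.26. Over the 20 B-lineage transcription factors the median difference was -0.15, over the 20 stromal genes 0.11 and over all bins 0.00.

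The lowest p among bins with lower scores in Erg KO belonged to antigen receptor segments in 3 of 5 bins. The bin at chr12:114900081-114999801, with 10 Igh segments from Ighv1-38 onward, scored -0.44 and 0.05 in Erg KO against 0.30 and 0.83 in the controls. The bins at chr14:52499972-52600400 and chr14:52600397-52700135, with Trav2 and with Trav4-1, each differed by -0.63. Among bins with higher scores, chr10:98499992-98600233, in which no protein-coding gene starts, scored 0.65 and 0.46 against -0.18 and -0.43, a change of sign. The bin of Mab21l1 on chromosome 3 scored 0.71 and 0.46 against 0.08 and -0.20. Adjusted p was 0.238 for each of these.

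Compartment strength is the log2 of A with A times B with B contacts, divided by the square of A with B contacts. Each is taken over expectation, for the 20% of bins at either end of the score. This strength changed in opposite directions within and between chromosomes. Within chromosomes, beyond 2 Mb, it was 5.15 and 5.45 in Erg KO and 4.997 and 4.21 in the controls. Contacts of A with A stood at 1.39 and 1.40 times expectation against 1.32 and 1.19, those of B with B at 1.92 and 1.95 against 1.85 and 1.75, and those of A with B at 0.274 and 0.250 against 0.277 and 0.335. The difference in strength was 0.70, and it was 0.30 without Erg fl/fl control replicate 2. Between chromosomes the strength was 3.02 and 2.84 in Erg KO against 3.61 and 3.51, a difference of -0.63 that stood at -0.68 without that library. Contacts of A with B between chromosomes were 0.569 and 0.601 times expectation in Erg KO against 0.497 and 0.515 in the controls. Each of these comparisons had groups that did not overlap and an exact permutation p of 0.333. Contacts of A with A between chromosomes did overlap, at 2.41 and 2.35 against 2.56 and 2.37.

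**Figure D2:**
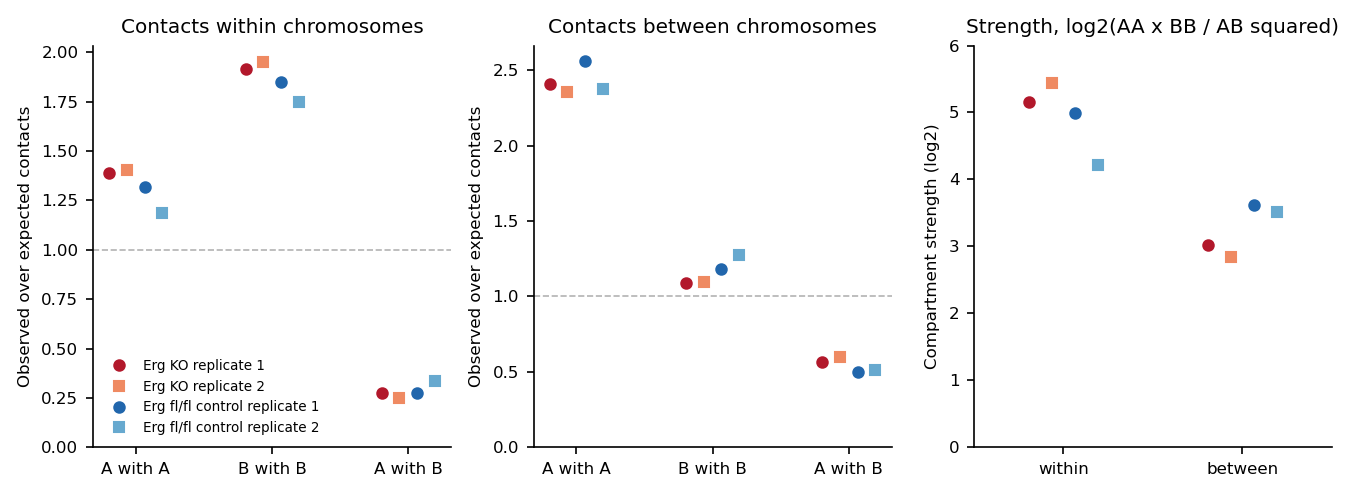
Contacts between bins of the strongest A and B compartments in the 4 libraries. The left and middle panels plot observed over expected contacts, with a dashed line at 1, for A with A, B with B and A with B within and between chromosomes. The right panel plots compartment strength on a log2 scale, where both Erg KO libraries lie above both controls within chromosomes and below both between them.

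Domain insulation was more marked in Erg KO. The insulation score of a bin is the log2 ratio of contacts crossing it, between the 500 kb on either side, to the number expected at those distances, so that a low score marks a boundary. The spread of the score over bins was larger in Erg KO, with an SD of 0.517 and 0.527 against 0.449 and 0.418. At 1954 boundaries called on the mean of the 4 libraries, the score fell below its flanks by a mean of 0.754 and 0.748 in Erg KO, and by 0.662 and 0.551 in the controls, with no overlap. The difference was 0.15 on the log2 scale, and 0.09 without Erg fl/fl control replicate 2. Of the 1954 boundaries, 1394 (71.3%) were deeper in the Erg KO mean, and 65.5% were deeper than in Erg fl/fl control replicate 1 alone. Both Erg KO libraries were deeper than both controls at 943 boundaries and shallower at 284.

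The positions of boundaries were largely shared. Called in each library separately, boundaries numbered 2139 and 2101 in Erg KO and 2054 and 2021 in the controls. Within 1 bin, 1829 were shared by the Erg KO libraries (85.5% and 87.1% of each) and 1679 by the controls (81.7% and 83.1%). Erg KO replicate 1 shared 1747 with control replicate 1 (81.7% and 85.1%) and 1575 with control replicate 2 (73.6% and 77.9%).

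**Figure D3:**
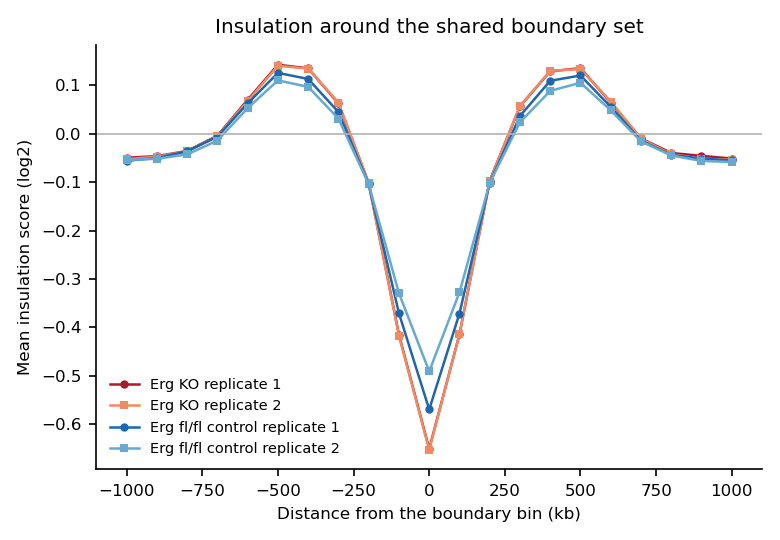
Mean insulation score, in log2 units, at increasing distance in kb from the 1954 boundary bins in each library. The 2 Erg KO curves coincide and dip lowest at the boundary, Erg fl/fl control replicate 1 lies above them and control replicate 2 highest. The flanks lie slightly higher in Erg KO.

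Of 23190 bins tested for insulation with limma, 2358 were lower in Erg KO (10.2%) and 2165 higher (9.34%) at an adjusted p under 0.05. Without Erg fl/fl control replicate 2 these counts were 405 and 49, and all 405 and 48 of the 49 were among the calls made with it. Bins with lower scores held a protein-coding gene start in 62.9% and lay in A in 66.8%, whereas bins with higher scores did so in 29.4% and 43.8%, and the other bins in 39.97% and 43.2%. Lower insulation scores, that is fewer crossing contacts, thus fell mostly in gene-bearing bins.

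Among the lists, myeloid and NK genes held the most insulation calls. Of 20 genes tested in 19 bins, 9 were lower in Erg KO and 1 higher, beside 10.2% lower and 9.34% higher over all bins. The median change was -0.16, against 0.01 over all bins. S100a8 and S100a9, which encode the neutrophil protein calprotectin and share the bin chr3:90600468-90700805, scored -2.17 and -2.05 in Erg KO against -1.43 and -1.25 in the controls. The groups did not overlap, and the change of -0.77 (SE 0.09, limma adjusted p = 4.01e-05) stood at -0.68 without control replicate 2. Csf3r, the receptor for the granulocyte colony-stimulating factor, scored -1.72 and -1.53 against -1.14 and -0.66, a change of -0.73 (SE 0.10, adjusted p = 9.85e-05). Elane, the neutrophil elastase, changed by -0.58, and Klrb1c, the NK receptor NK1.1, by -0.57. Without control replicate 2 the change at Klrb1c was -0.38 and no longer passed (adjusted p = 0.119). Cebpa, a myeloid transcription factor, rose by 0.33, but not without that library.

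Of the 20 B-lineage transcription factors, Pax5 had the largest insulation change. Its start lies in the bin chr4:44699832-44800341, which scored -0.01 and 0.12 in Erg KO and 0.63 and 0.85 in the controls. Both Erg KO values lay below both control values, and the change was -0.69 (SE 0.09, limma adjusted p = 0.000111), or -0.58 without control replicate 2 (adjusted p = 0.00208). In the controls this bin had more crossing contacts than expected at its distances, and in Erg KO a number close to that expectation. Ebf1 scored -0.39 and -0.41 against -0.49 and -0.52, a change of 0.10 (SE 0.09, adjusted p = 0.46), and Erg 0.41 and 0.27 against 0.47 and 0.51, a change of -0.15 (SE 0.09, adjusted p = 0.265). In both the groups did not overlap, but the differences were too small to pass. Over all bins 10.2% were lower and 9.34% higher, and of the 20 B-lineage transcription factors 4 were lower and 2 higher. Besides Pax5 these were Ikzf3, the lymphoid factor Aiolos, at -0.42, Irf8 at -0.35, Myb at -0.35, Foxo1 at 0.30 and Runx1 at 0.33, of which none passed without control replicate 2.

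Genes of the pre-B cell receptor and of the B-cell surface moved in a single direction where they passed. Of 19 genes in 18 bins 5 were lower and 0 higher, beside 10.2% lower and 9.34% higher over all bins. The median was -0.18. Igll1 and Vpreb1 are each counted among the lower genes but share a bin and its value. Igll1 and Vpreb1, which encode the surrogate light chain, lie in the same bin, chr16:16800138-16899967, which holds the promoter windows printed above. That bin scored -1.01 and -0.75 in Erg KO against -0.38 and -0.17 in the controls, a change of -0.61 (SE 0.09, limma adjusted p = 0.00031) that stood at -0.50 without control replicate 2 (adjusted p = 0.0132). Vpreb3 changed by -0.46, Blk, a kinase of the Src family, by -0.37 and Cd24a by -0.30, none of which passed without that library. Cd79a, which encodes a receptor signalling chain, did not pass, at -0.23 (adjusted p = 0.0922).

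The other lists gave fewer or mixed calls, to be read beside 10.2% lower and 9.34% higher over all bins, and some of their counts were near those shares. T-lineage genes held 5 lower and 1 higher of 18 genes in 17 bins, the Cd3 genes among the lower at -0.42 and -0.49. Genes of V(D)J recombination and repair held 3 lower and 1 higher of 17, among them Xrcc5 and Xrcc6, the subunits of Ku, at -0.40 and -0.41. Genes of chromosome architecture held 5 lower and 0 higher of 19, with Nipbl, the cohesin loader, at -0.48, and Ctcf, the boundary-binding factor, at -0.32. Housekeeping genes, included as a contrast, held 4 lower and 0 higher of 14, led by Ppia at -0.58 and Tubb5 at -0.51. Stem and progenitor genes held 3 lower and 4 higher of 18, the higher being Hlf at 0.42, Hoxa9 at 0.38, Meis1 at 0.36 and Kit, the receptor for SCF, at 0.28. Stromal genes held 1 lower and 2 higher of 20, with Prrx1 at 0.35 and Col1a2 at 0.30. None of the genes named in these 6 lists passed without control replicate 2. Bins with a gene start were frequent among all bins with lower scores, as given above, so that lower calls in a list of genes are not particular to it.

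Among all bins, the lowest insulation changes in Erg KO were -1.24 at Rpl38 and Ttyh2 on chromosome 11, -1.235 at chr1:130499897-130599683, where no protein-coding gene starts, -1.228 at Per3 and Vamp3 on chromosome 4 and -1.22 at Mcmbp and Sec23ip on chromosome 7. The bin of Rpl38, which encodes a ribosomal protein, scored -2.04 and -2.20 in Erg KO and -1.10 and -0.66 in the controls. Its score was negative in every library and lower in both Erg KO libraries than in both controls. Of the 10 bins with the lowest changes, 4 held no protein-coding gene start and no receptor segment, 1 held Igl segments and 1 held Madcam1 and Gzmm. The neighbour of the S100a8 bin, with Pglyrp4, was also among them at -1.16. The highest changes were smaller, from 0.61 to 0.66, at bins that included Slco3a1, Lnx1 and, at 0.64, the bin of Lsm11, Sox30 and Thg1l, which scored -0.38 and -0.39 against -0.99 and -1.07.

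**Figure D4:**
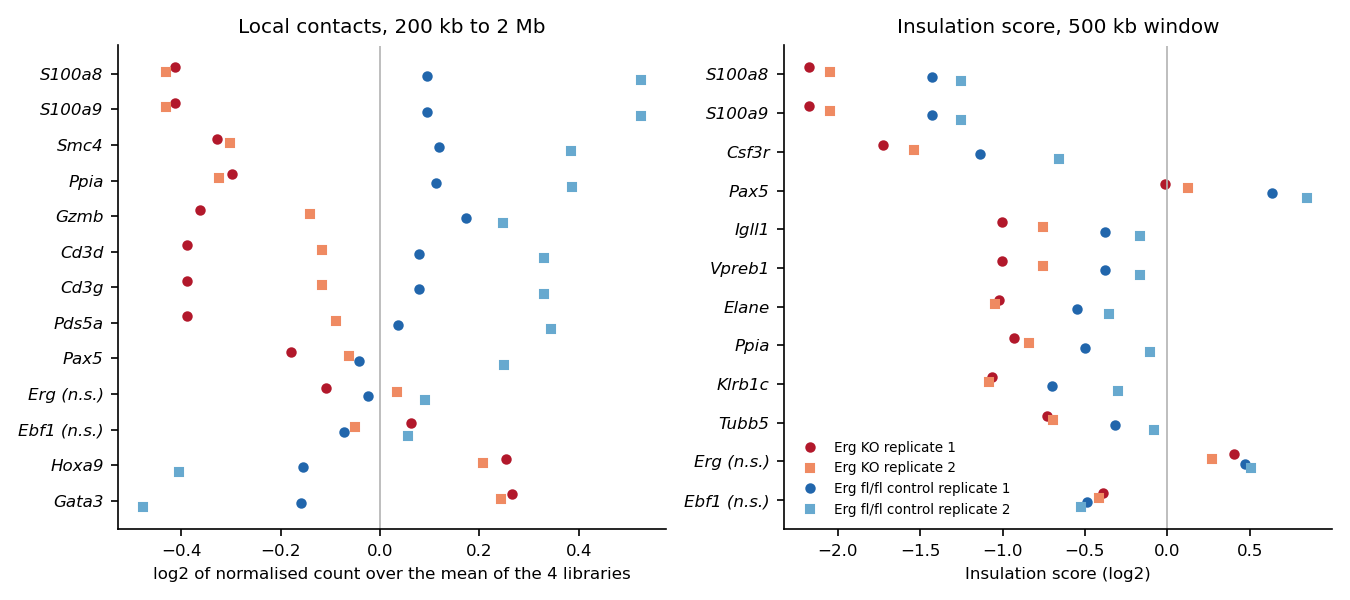
Values of the 4 libraries at the bins of the list genes with the largest changes and of Erg, Ebf1 and Pax5. The left panel plots local contacts as the log2 of the normalised count over the mean of the 4 libraries, and the right panel the insulation score in log2 units, with n.s. for genes that did not pass an adjusted p of 0.05. S100a8 and S100a9 are lowest in both Erg KO libraries in both panels, and in the left panel Gata3 and Hoxa9 are higher in both Erg KO libraries than in both controls.

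Local contacts, the number of contacts a bin made at 200 kb to 2 Mb, were tested next with the quasi-likelihood test of edgeR. Library sizes and the trend with GC content were taken out, so that a change is relative to the other bins and leaves aside the loss of contacts at these distances described above. Of 23645 bins, 3215 were lower in Erg KO (13.6%) and 3051 higher (12.9%). Without Erg fl/fl control replicate 2 these were 359 and 151, of which 359 and 150 were among the calls made with it. The lower bins held a protein-coding start in 58.3% and lay in A in 64.7%, the higher in 28.6% and 34.9%, and the other bins in 40.8% and 43.8%. Of bins tested for both measures, 1125 were lower for local contacts and insulation alike, which is 36.1% of the former and 47.7% of the latter. The 2 measures share read pairs and are not independent.

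The bin of S100a8 and S100a9 had 436 and 430 normalised contacts in Erg KO and 619 and 834 in the controls. The groups did not overlap, and the change was -0.73 on the log2 scale (SE 0.09, edgeR adjusted p = 1.55e-10), or -0.52 without control replicate 2. Other list genes with large falls were Smc4, a condensin subunit, at -0.56, Ppia, a prolyl isomerase used as a housekeeping gene, at -0.56, Gzmb at -0.46, the shared bin of Cd3d and Cd3g, chains of the T-cell receptor complex, at -0.46, and Pds5a, a cohesin regulator, at -0.43. With any 1 library left out, the change ran from -0.70 to -0.43 at Smc4 and from -0.70 to -0.42 at Ppia. It ran from -0.57 to -0.35 at Gzmb, from -0.60 to -0.32 at Cd3d and Cd3g, and from -0.58 to -0.27 at Pds5a. Without control replicate 2 Pds5a did not pass.

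Of the list genes that rose, Gata3 and Hoxa9 had the largest changes, although their lists also held genes that fell, 5 of 18 T-lineage genes and 4 of 18 stem and progenitor genes. The bin of Gata3, the T-lineage transcription factor, at chr2:9800350-9900081, had 1162 and 1144 normalised contacts in Erg KO against 866 and 695, a rise of 0.57 (SE 0.07, edgeR adjusted p = 1.85e-10). The bin of Hoxa9, a homeobox factor of stem and progenitor cells, at chr6:52199619-52300001, had 2033 and 1969 against 1533 and 1289, a rise of 0.51 (SE 0.07, adjusted p = 6.21e-10). Without control replicate 2 these rises were 0.41 and 0.38, the smallest with any 1 library left out. Meis1, a partner of Hox factors, rose by 0.39 (0.28 to 0.49 with a library left out). Sox4, a factor of early B-cell survival, rose by 0.36, or by 0.26 without control replicate 2. Bcl11b, a T-lineage factor, rose by 0.33, and Rad21, a cohesin subunit, by 0.41, but neither passed without that library.

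The bins of the 3 central B-lineage factors changed little in local contacts. Erg had 986 and 1089 normalised contacts in Erg KO against 1045 and 1132, a change of -0.07 (SE 0.07, edgeR adjusted p = 0.467). Ebf1 had 1082 and 1001 against 986 and 1078, a change of 0.02 (SE 0.07, adjusted p = 0.881). In both the groups overlapped. Pax5 had 758 and 822 against 833 and 1020, a change of -0.22 (SE 0.08, adjusted p = 0.0192) that fell to -0.08 without control replicate 2 (adjusted p = 0.793).

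By list, the counts of lower and higher local contacts are to be read beside 13.6% lower and 12.9% higher over all bins, and without Erg fl/fl control replicate 2 they fell in every list. They were 2 and 3 of 20 B-lineage transcription factors (0 and 1 without that library), 5 and 2 of 18 T-lineage genes (2 and 1), 2 and 2 of 17 genes of V(D)J recombination (0 and 0) and 4 and 1 of 19 architecture genes (1 and 0). They were 4 and 0 of 15 housekeeping genes (1 and 0), 7 and 2 of 20 myeloid and NK genes (3 and 0), 1 and 1 of 20 pre-B cell receptor and surface genes (0 and 0), 4 and 4 of 18 stem and progenitor genes (0 and 2) and 4 and 3 of 20 stromal genes (0 and 0). The medians lay between -0.10 and 0.03, against 0.01 over all bins.

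At most antigen receptor loci nearly all bins had lower local contacts in Erg KO, beside 13.6% called lower over all bins. At Igh, which filled 29 bins at chr12:113200177-116100050, the mean bin had 550 and 637 normalised contacts in Erg KO and 802 and 992 in the controls, and 27 of 29 bins were lower, with a median change of -0.63. Without control replicate 2, 22 of 29 were still lower, with a median of -0.42. At Igk, the kappa light chain locus, 32 of 33 bins were lower (median -0.62, and 23 bins without control replicate 2), and at Igl, the lambda locus, 3 of 3 (median -0.82, and 3 without it). At Tra and Trd, which encode T-cell receptor alpha and delta chains, 14 of 15 tested bins were lower (median -0.64, and 8 without it), and at Trg 2 of 3 (median -0.25, and 0 without it). At Trb, the T-cell receptor beta locus, 0 of 8 bins passed in edgeR, with a median of -0.11 and mean values of 752 and 802 against 791 and 854. V segments of a family are alike in sequence, so reads at these loci may have been shared between copies, and how such reads were treated was not examined.

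Over all bins 10.2% were called lower for insulation. Insulation scores of the loci moved with their local contacts. They were lower in 17 of 29 bins at Igh, 31 of 33 at Igk, 3 of 3 at Igl, 6 of 6 tested at Tra and Trd, 3 of 3 at Trg and 0 of 8 at Trb. At Igk the mean score was -0.38 and -0.37 in Erg KO against -0.02 and 0.26 in the controls. Without control replicate 2, 5 bins at Igh, 11 at Igk, 3 at Igl and 3 at Tra and Trd were lower, and 0 at Trg. Compartment scores passed in 0 bins of these loci in limma, and their median difference over all bins was -0.0025. The difference was negative in all 29 bins at Igh, all 33 at Igk and all 3 at Igl. It was also negative in all 15 at Tra and Trd, all 3 at Trg and 6 of 8 at Trb. Neighbouring bins share contacts, so these counts are not counts of independent events.

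**Figure D5:**
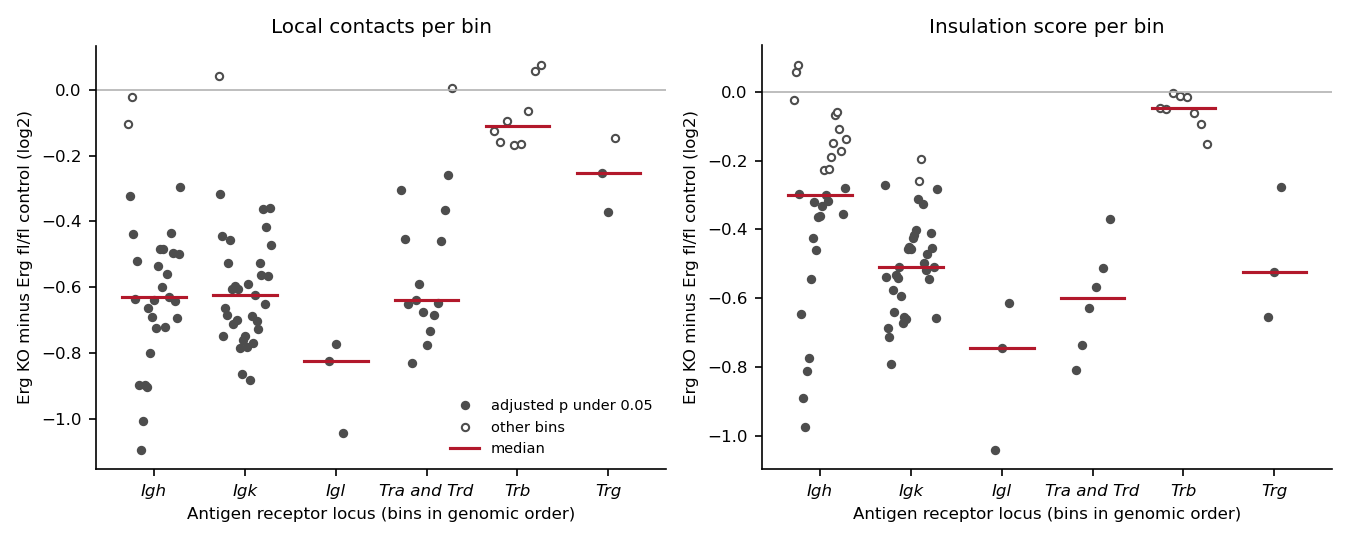
Change in local contacts and in insulation score, both as Erg KO minus Erg fl/fl control on the log2 scale, for each bin of 6 antigen receptor loci in genomic order. Filled points passed an adjusted p of 0.05 and lines are medians. Local contacts lie below 0 in 29 of 29 bins of Igh, 32 of 33 of Igk and 3 of 3 of Igl, whereas the bins of Trb lie near 0 and none of them passed.

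Igh and Igl segments were among the bins that led the fall in local contacts over all bins. Of the 10 bins with the largest falls, 3 were at Igh, led by chr12:113899848-114000331 with Ighv7-2, Ighv14-1 and Ighv4-1, at 367 and 476 normalised contacts in Erg KO against 756 and 1052, a change of -1.09 (SE 0.09, edgeR adjusted p = 3.02e-21). A bin with Iglc2, Iglj2 and Iglv3 at chr16:19200000-19299999 changed by -1.04, and the adjoining 2 bins, in which the olfactory receptor genes Olfr164, Olfr165 and Olfr166 start, by -1.07 and -1.04. The bin of Pglyrp4 beside S100a8 changed by -0.99. The lowest 2 bins lay near a chromosome end and had few contacts: 74.9 and 52.2 against 120 and 209 on chromosome 19, a change of -1.32, and 83.9 and 122 against 185 and 266 at the bin of Vmn2r-ps159 on chromosome 4, a change of -1.13.

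Of the 10 bins with the largest rises in local contacts, 2 held no protein-coding gene start, chr10:105400064-105500097 at 0.74 and chr15:51600284-51700198 at 0.65. Jag1, a Notch ligand, had 1028 and 928 normalised contacts in Erg KO against 742 and 504, a rise of 0.66, or 0.40 without control replicate 2. Nr2f2, a nuclear receptor, rose by 0.64, Fat1, an atypical cadherin, by 0.69 and Tmtc2 by 0.68. 4 of the 10 bins lay on chromosome 5 in a cluster around Speer4e, which starts in the bin chr5:14899494-15000018, and rose by 0.63 to 0.74. Without control replicate 2 these rises were 0.38 to 0.56, and not all of them passed. The genes of that cluster are near-identical copies, so its values are uncertain.

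Contacts between pairs of bins gave few calls, and these rested on both controls. Of 705555 bin pairs tested with edgeR, 4737 were lower in Erg KO (0.671%) and 1111 higher (0.157%). Without Erg fl/fl control replicate 1 none passed, without control replicate 2 none passed, and by DESeq2 none passed. At an unadjusted p under 0.05 the share over all pairs was 10.98% in edgeR. Lower calls were most numerous at short range, with 2005 at 0.2 to 0.5 Mb (2.14% of pairs there), 1524 at 0.6 to 1 Mb (1.34%) and 822 at 1.1 to 2 Mb (0.444%). The median change over all pairs tested in these classes was 0.03, -0.06 and -0.09. Changes are relative to a trend over abundance, so the calls do not measure a general loss at short range. Beyond 5 Mb 13 were lower and 84 higher.

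Pax5 lies between the bins of 1 of the 10 strongest lower pairs. The pair joined chr4:44400090-44500144 with chr4:45800102-45900007, 1.4 Mb apart, with 10.5 and 5.07 normalised read pairs in Erg KO and 29.1 and 40.1 in the controls. Both Erg KO values lay below both control values, and the change was -2.13 (SE 0.38, edgeR adjusted p = 7.65e-05), with -1.89 and an adjusted p of 0.824 without control replicate 2. Over all tested pairs 0.671% were lower and 0.157% higher, and 2.14% were lower at 0.2 to 0.5 Mb and 1.34% at 0.6 to 1 Mb. The counts that follow are to be read beside these shares. Pairs across a bin share read pairs with its insulation score, which had already passed for Pax5, Igll1, Csf3r and S100a8. Counts of such pairs are therefore not independent of that score. Of 188 tested pairs whose bins lie on either side of the Pax5 bin, 23 were lower and 0 higher, with a median of -0.65. The same count was 9 lower of 187 at Erg, 1 of 185 at Ebf1, 5 of 167 at Igll1, 10 of 177 at Csf3r and 6 of 18 at S100a8, and 0 of 180 at Gata3, where 1 was higher, and 0 of 190 at Hoxa9. These counts were 0 at each gene without control replicate 2.

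Other strong lower pairs also lay across named genes. The pair of chr12:112399806-112500227 with chr12:112700331-112799862 lay across Akt1, a kinase of growth signalling, with 11.7 and 12.9 normalised read pairs in Erg KO against 56.7 and 77.9 in the controls, a change of -2.44 (SE 0.29). A pair on chromosome 2, across Nfatc2, a transcription factor of lymphocyte activation, and Sall4, changed by -2.20, and a pair on chromosome 11 across Rpl38, the gene with the lowest insulation change, by -2.13. Among higher pairs, the largest rise was 1.72 (SE 0.32), on chromosome 1 between chr1:62099894-62199962 and chr1:62799908-62899910 across Nrp2, which encodes a semaphorin receptor, with 42.2 and 42.1 against 15.5 and 9.31. Of the 10 strongest higher pairs, 7 had no protein-coding start in either bin. The pair chr10:97900051-98000295 with chr10:98499992-98600233, at 41.2 and 33.3 against 11.2 and 12.6, was among them and ends in the bin whose compartment score had changed sign.

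Over all tested pairs 0.671% were lower and 0.157% higher. Within the receptor loci, 54 of 434 tested pairs were lower at Igh (12.4%), 17 of 543 at Igk (3.13%) and 3 of 6 at Igl. At Tra and Trd 1 of 112 was lower, at Trb 0 of 36 and at Trg 0 of 6, and 0 were higher at each locus. Without control replicate 2 all of these were 0, although the medians at Igh (-0.67, then -0.50) and Igk (-0.57, then -0.34) kept their sign.

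The pair of Igh bins that hold Ighv1-72 and Ighv5-2, of the distal and proximal V families probed by FISH in the study, was read on its own. The bins lie at chr12:115699921-115799950 and chr12:113500009-113600023, 2.2 Mb apart, and had 7 and 3 read pairs in Erg KO against 11 and 6 in the controls, too few to compare closely. Over the expectation at that distance this came to 1.89 and 0.817 against 2.74 and 1.76, with overlapping groups (exact permutation p = 0.667, two-sided). In edgeR the change was -0.96 (SE 0.60, adjusted p = 0.588). With each bin widened by its neighbours to 3 by 3 bin pairs, there were 58 and 50 read pairs in Erg KO against 106 and 88, or 1.58 and 1.28 times expectation against 2.60 and 2.38. These groups did not overlap, and the exact permutation p was 0.333, the lowest possible.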

How the data were processed

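In situ Hi-C was performed on biological duplicates per the study, and the deposited files held raw counts of read pairs for pairs of bins of about 100 kb. The authors had made these counts with diffHic from reads aligned to mm10, after removing dangling ends, and had not normalised them. The comparison, its genes and its lists were chosen with earlier results of these data known.

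Bins with a coverage of 0.3 to 3 times the median were kept on 19 autosomes. Compartment scores, insulation scores (500 kb windows) and distance decay were computed after iterative balancing (60 rounds) in Python 3.11.15, with the first 2 also thinned to equal depth and freed of their trend with GC content by a spline of 5 degrees of freedom. They were tested with limma 3.58.1. Local contacts (200 kb to 2 Mb) and bin pairs (count of at least 10 and 5 times the median count of pairs of 500 kb bins on different chromosomes, not scaled to the smaller area of the tested pairs) were tested in R 4.3.3 with edgeR 4.0.16 (quasi-likelihood fits, offsets for GC content). Offsets also held TMM library sizes for local contacts and a loess trend of counts over abundance for bin pairs. DESeq2 1.42.0 was an alternative. Models held group and sex, which is also the replicate number, and calls were made at an adjusted p of 0.05 (Benjamini-Hochberg). Leaving out a library also dropped the sex term. Genes were placed by their start in GENCODE release M21, and genes that start in the same bin share its value but are each counted in their list. Errors and p-values of the limma and edgeR models measure the spread left after group and sex, with variances drawn together across features. A difference between replicates 1 and 2 that both groups share is not part of them. At chr12:114900081-114999801, for instance, compartment scores had SDs of 0.34 in Erg KO and 0.37 in the controls but an SE of 0.053.

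Same-numbered samples deviated together with r = 0.233 for local contacts, 0.141 for compartments, 0.132 for insulation and -0.089 for distance classes. Erg, Ebf1 and Pax5 were always named, with the 10 genes of the 9 lists (168 genes) that changed most per measure among those that passed, or had the smallest p where fewer passed, the 10 bins (5 where none passed) and the 10 bin pairs (at least 200 kb apart, mean count of at least 20) with the largest change in each direction. Other list genes are examples chosen after their values were seen. Scripts were tested on simulated data: of 100 changed features each, 60 were recovered at 1.25-fold and 100 at 1.5-fold for local contacts among 23645 bins, 6 at 2-fold and 40 at 4-fold for bin pairs among 705555, 1 at a shift of 0.5 and 78 at 1 for compartment scores among 23645, and 87 and 100 for insulation among 23190. A bin pair and a list gene are not reported here.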

Additional observations from a re-analysis of the deposited data

Results flagged for a closer look

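Contacts between mitochondrial DNA and autosomes, which enter none of the comparisons, were more frequent in Erg KO. They numbered 37.7 and 46.6 per 1000000 autosomal read pairs in the Erg KO libraries, a mean of 42.2, against 19.4 and 22.5 in the Erg fl/fl control libraries, a mean of 20.97. The counts behind these values were 2073 and 2568 read pairs against 805 and 634. The groups did not overlap (exact permutation p = 0.333, two-sided, the lowest possible). Contacts between chromosomes moved the same way, at 35.2% and 37.4% against 26.8% and 23.7%, and the part of such read pairs in the other results was not tested.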

How the results depend on the processing

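The difference in slope of the distance decay reversed to -0.00327 among bins of intermediate GC content and ran from -0.00214 to 0.0485 with a library left out, reversing without Erg fl/fl control replicate 1. Compartment strength reversed to -0.63 for contacts between chromosomes. Without balancing, strength within chromosomes still differed by 0.69, but 2 of its parts overlapped between the groups. Contacts of A with A then stood at 1.710 and 1.854 in Erg KO against 1.847 and 1.839 in the controls. Those of A with B stood at 0.277 and 0.253 against 0.276 and 0.327. With a library left out, the share between chromosomes differed by 9.44 to 12.6 percentage points, compartment strength by 0.30 to 1.09, boundary depth by 0.09 to 0.20 and the Igh bin pair by -1.43 to -0.36. Calls with a library left out ranged from 16 to 192 distance classes (108 with all), 454 to 4835 bins for insulation (4523), 510 to 6604 for local contacts (6266) and 0 to 687 bin pairs (5848), with 0 compartment bins throughout. Insulation gave 7066 calls with 1 Mb windows. Local contacts gave 13053 without the GC offset and 621 by DESeq2, and bin pairs 28768 without the GC offset, 2698 with TMM, 2107 with thinned counts and 0 by DESeq2. Without the replicate block, local contacts gave 3088 calls, distance classes 120, compartments 0, insulation 3179 and bin pairs 4319. Ebf1 reversed to -0.038 for insulation with 1 Mb windows, and for local contacts to -0.089 without the GC offset and -0.016 with contacts to 1 Mb. With a library left out, local contacts of Ebf1 ran from -0.049 to 0.080, negative without replicate 1 of either group, and those of Erg from -0.14 to 0.00113, positive without replicate 1 of Erg KO. None of these passed. The cause was not tested. All 20 named bin pairs were lost without either Erg fl/fl control library and by DESeq2. With 2 libraries a group, no value of a whole library could reach a p of 0.05.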
